A study of Mus musculus with 6 samples.

Results

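The respiratory chain is examined here gene by gene in MC3T3-E1 cells cultured with or without cyanidin-3-O-glucoside (C3G), with the subunits encoded by mitochondrial DNA (mtDNA) and those encoded in the nucleus kept apart. Members were all protein-coding genes whose symbol begins with mt-, Nduf, Uqcr, Cox4 to Cox8 or Atp5, together with *Sdha*, *Sdhb*, *Sdhc* and *Sdhd*. In GENCODE M21, the mouse annotation whose identifier versions match most of the deposited identifiers, 107 genes met this rule. Of these, 100 were among the 11234 genes with values, 13 of them mitochondrially encoded and 87 nuclear encoded. The other 7, *Cox4i2*, *Cox6b2*, *Cox7a1*, *Cox8b*, *Cox8c*, *Ndufa4l2* and a second entry for *Atp5o*, were not analysed here. All 13 mitochondrially encoded members and all 87 nuclear members went into the tests, since no filter on low values was applied. The listed genes themselves had a mean of at least 0.500 FPKM in 1 group or both.

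MC3T3-E1 is a mouse preosteoblast line, labelled as C57BL/6 in origin, that can be driven to form mineralising osteoblasts. All 6 cultures were brought into step without serum, and 3 then received medium with C3G, an anthocyanin pigment of plants, at 100 μmol/L for 24 h while 3 received medium without it. Both groups were the same line, so the results are those of 1 cell line, and the labels do not say how independent the cultures of a group were; p-values therefore measure the spread between these samples, which may be technical. RNA was sequenced from stranded libraries, and expression is given as FPKM, fragments counted per gene and scaled for gene length and for the size of the library, a scale on which genes of different length can be compared within a library. Of 10 osteoblast lineage markers, 9 had values. In control replicate 1, 5 of the 9 lay under the mean of the other controls, with a median log2 departure of -0.45. The other 4 lay above it, among them *Col1a1*, the main collagen of bone, at 4432 FPKM in control replicate 1, at 942 and 1221 in the other controls, and at 1478, 923 and 1246 with C3G. Of the markers of other cells, 0 of 8 for adipocytes, 3 of 8 for macrophages and osteoclasts (*Cd68*, *Ctsk* and *Mmp9*) and 1 of 8 for skeletal muscle (*Actn3*) had values.

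The respiratory chain passes electrons from NADH and succinate through complexes I to IV to oxygen and pumps protons out of the mitochondrial matrix, and ATP synthase, complex V, makes ATP as protons flow back. Its subunits come from 2 genomes. A small set of hydrophobic core subunits is read from mtDNA as long transcripts that are cut into separate mRNAs, whereas all other subunits are transcribed in the nucleus, translated in the cytosol and imported. Complex II has no mitochondrially encoded subunit. In bone cells, oxidative phosphorylation is used alongside glycolysis, and its share changes as osteoblasts differentiate. The 13 mtDNA genes held 7 subunits of complex I, 1 of complex III, 3 of complex IV and 2 of complex V. By name, 36, 4, 8, 14 and 17 of the 87 nuclear members were assigned to complexes I to V, and 8 were Ndufaf assembly factors. Assignment by name does not show that each is a structural subunit. *Ndufa4*, named after complex I, was counted with complex IV, where its protein is found.

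The members differ widely in base composition, and 3 coding sequences are printed to show this range, since the GC content of whole transcripts is set beside the levels in control replicate 1 further on. G and C are in capitals. *mt-Atp8* encodes a small membrane subunit of ATP synthase (mtDNA bases 7766 to 7966, plus strand), *Cox7c* a small nuclear encoded subunit of complex IV (between bases 86045756 and 86046675 of chromosome 13, minus strand) and *Cox8a* another (between bases 7215392 and 7217512 of chromosome 19, minus strand). The positions are those of GRCm38, and each sequence is given 5′ to 3′ without the stop codon.
mt-Atp8: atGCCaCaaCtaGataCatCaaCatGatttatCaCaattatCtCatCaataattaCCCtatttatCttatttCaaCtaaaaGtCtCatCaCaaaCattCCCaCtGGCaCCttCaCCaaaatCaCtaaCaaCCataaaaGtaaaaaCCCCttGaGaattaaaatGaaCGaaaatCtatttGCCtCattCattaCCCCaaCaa
Cox7c: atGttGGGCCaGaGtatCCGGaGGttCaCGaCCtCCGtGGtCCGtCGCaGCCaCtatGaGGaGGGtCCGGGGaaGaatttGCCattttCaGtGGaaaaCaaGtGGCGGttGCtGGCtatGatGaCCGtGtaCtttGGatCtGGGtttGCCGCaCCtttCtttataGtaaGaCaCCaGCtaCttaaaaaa
Cox8a: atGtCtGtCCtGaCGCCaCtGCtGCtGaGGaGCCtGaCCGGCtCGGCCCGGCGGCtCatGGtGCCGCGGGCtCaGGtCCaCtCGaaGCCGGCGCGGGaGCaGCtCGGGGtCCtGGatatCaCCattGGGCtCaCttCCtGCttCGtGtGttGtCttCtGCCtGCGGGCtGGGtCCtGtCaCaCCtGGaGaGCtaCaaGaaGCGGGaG
The *mt-Atp8* sequence had 201 bases and 32.3% G and C, the *Cox7c* sequence 189 bases and 50.3%, and the *Cox8a* sequence 207 bases and 65.2%. In the longest annotated transcript, which is used for GC content from here on, the values were 31.9%, 38.4% and 58.5%. The mitochondrially encoded members spanned 31.9% to 41.1% and the nuclear members 36.7% to 63.3%.

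Mitochondrially encoded subunits were among the most abundant transcripts in 5 of the 6 libraries and far lower in control replicate 1. With that library left out, 12 of the 13 had a mean FPKM among the 20 highest of all listed genes. In control replicate 1, 0 of the 13 were among its 20 highest. Their summed FPKM made up 0.906% of all listed FPKM in control replicate 1, against 11.0% and 10.4% in the other controls and 9.42%, 12.2% and 11.3% with C3G. All 13 had their lowest value of the 6 libraries in control replicate 1. That library also stood apart over all listed genes, with 71 genes at 0 FPKM against 9 to 18 in the others and a median of 5.80 FPKM against 6.93 to 7.40. Fewer cells rich in mitochondria and less mitochondrial RNA per cell cannot be told apart in bulk RNA. Whether this library was prepared or sequenced in another way is not given in the sources used here, and its departure with GC content and the differences after a GC correction are given further on.

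**Figure D1:**
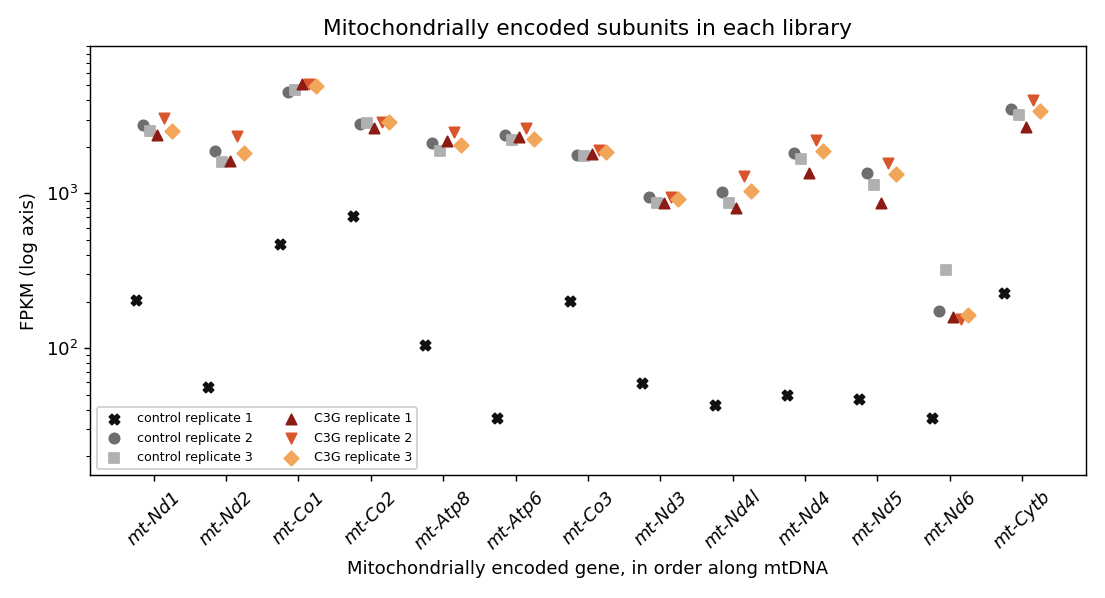
FPKM (log axis) of the 13 mitochondrially encoded subunits in order along mtDNA, with 1 symbol per library. The crosses of control replicate 1 lie below all other symbols for every gene, at 35.3 to 717.7 FPKM.

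Complex I has the most mitochondrially encoded subunits. *mt-Nd1*, whose protein borders the quinone site, read 204, 2769.6 and 2517 FPKM in the controls and 2379, 3060.5 and 2551 with C3G, always in the order of the replicate numbers. *mt-Nd2*, one of the proton-pumping subunits, read 56.2, 1893 and 1595 in the controls and 1619.7, 2343 and 1825 in the C3G cultures. *mt-Nd4* and *mt-Nd5* are the other pumping subunits. For *mt-Nd4* the control values were 49.5, 1829 and 1671 and the C3G values 1355, 2206 and 1869. For *mt-Nd5* they were 46.5, 1352 and 1137 in the controls and 866, 1585 and 1336 with C3G. In each of these 4 genes C3G replicate 2 was highest and the values of the other libraries, control replicate 1 apart, overlapped between groups. *mt-Nd3* and *mt-Nd4l* are small membrane subunits that complete the same arm. *mt-Nd3* read 59.5, 949 and 868 in the controls and 862, 955 and 922 with C3G. *mt-Nd4l* read 42.8, 1016 and 866 in the controls and 807, 1288 and 1036 with C3G. In both, the C3G cultures spanned the values of control replicates 2 and 3.

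*mt-Nd6* stood apart from the other mitochondrially encoded members. It is the only one of the 13 on the minus strand (mtDNA bases 13552 to 14070), and with control replicate 1 left out it had the lowest mean, 194 FPKM. Its control values were 35.4, 175 and 319.9 FPKM and its C3G values 158, 153 and 165. The ratio of the highest to the lowest of the 5 libraries other than control replicate 1, 2.09, was the largest among the 13. Left without control replicate 1, the 3 C3G values all lay under both control values, with a log2 difference of -0.57 (SE 0.24). The 2 control values differed from each other by more than the lower one differed from the C3G values. *mt-Nd6* shares 14 bases with *mt-Nd5* on the opposite strand, and how strand was used in counting is not given in the sources used here.

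The mitochondrially encoded subunits of complexes III, IV and V follow. *mt-Cytb*, the heme-bearing core of complex III, read 226, 3530.4 and 3226 FPKM in the controls and 2676, 3993 and 3431 with C3G. *mt-Co1*, the catalytic subunit of cytochrome c oxidase, had the highest mean of all members without control replicate 1, 4866 FPKM. Its values were 471, 4508 and 4689 in the controls and 5110.2, 5087 and 4935 in the C3G cultures. All 3 C3G values of *mt-Co1* were higher than all 3 control values. *mt-Co2*, which takes the electrons from cytochrome c, read 718, 2795 and 2840.0 in the controls and 2642, 2903 and 2916 with C3G, and this gene departed least in control replicate 1. *mt-Co3*, the other core subunit of the oxidase, read 202, 1782 and 1759.8 in the controls and 1797, 1913 and 1844 with C3G, again without overlap. The ATP synthase subunits *mt-Atp8* and *mt-Atp6* share 43 bases of mtDNA. *mt-Atp8* read 104, 2125 and 1889 in the controls and 2195, 2481 and 2047 with C3G. *mt-Atp6*, which forms the proton path, read 35.3, 2386 and 2226 in the controls and 2334, 2633 and 2237 with C3G, and it departed most in control replicate 1.

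The comparison with C3G was first made with all 6 libraries. The log2 difference, C3G minus control on the log2(FPKM + 1) scale, was positive for 13 of 13 mitochondrially encoded members, with a median of 1.31 and a range of 0.33 for *mt-Nd6* to 2.05 for *mt-Atp6*. None of these differences passed the test. At the thresholds of the study, an unadjusted limma p under 0.05 and a fold of at least 1.2, 0 of the 13 were called, against 73 of all 11234 genes, or 0.650%. On the p alone the number was also 0, and an ordinary linear model called 0 as well. *mt-Atp8* had the smallest limma p of the 13 (log2 difference 1.58, SE 1.11). The adjusted p of all 100 members was 0.992 or more, both in this fit and in the fit without control replicate 1. For *mt-Co1* the log2 difference was 1.23 with an SE of 0.87, and for *mt-Co3* it was 1.11 with an SE of 0.82. Both of these had groups that did not overlap, as did 286 of all genes in that direction, or 2.55%. Their two-sided exact permutation p was 0.1, the smallest that 3 against 3 allows, so this design cannot reach 0.05 in that test.

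Left without control replicate 1, the median log2 difference of the mitochondrially encoded members was 0.02, with 10 positive and 3 negative, against -0.01 for all genes. In this fit 0 of the 13 were called, against 144 of all genes, or 1.28%. The largest positive difference was that of *mt-Atp8* (0.16, SE 0.17). *mt-Co1* differed by 0.13 (SE 0.16) and *mt-Co3* by 0.06 (SE 0.15), and in both every C3G value stayed above both remaining controls. *mt-Nd1* and *mt-Co2* came to 0.0042 and 0.00017. Between libraries of the same replicate number, the median difference of C3G from control was 3.83 for number 1, 0.17 for number 2 and 0.09 for number 3, with 13, 12 and 12 of the 13 higher in the C3G library. Over all genes these medians were 0.19, -0.01 and -0.01, with 7153, 5232 and 5175 of 11234 higher. The median of the 13 was thus positive for all 3 numbers, while its size for number 1 was that of control replicate 1. Since mtDNA genes are read as long transcripts, the 13 are not independent observations.

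**Figure D2:**
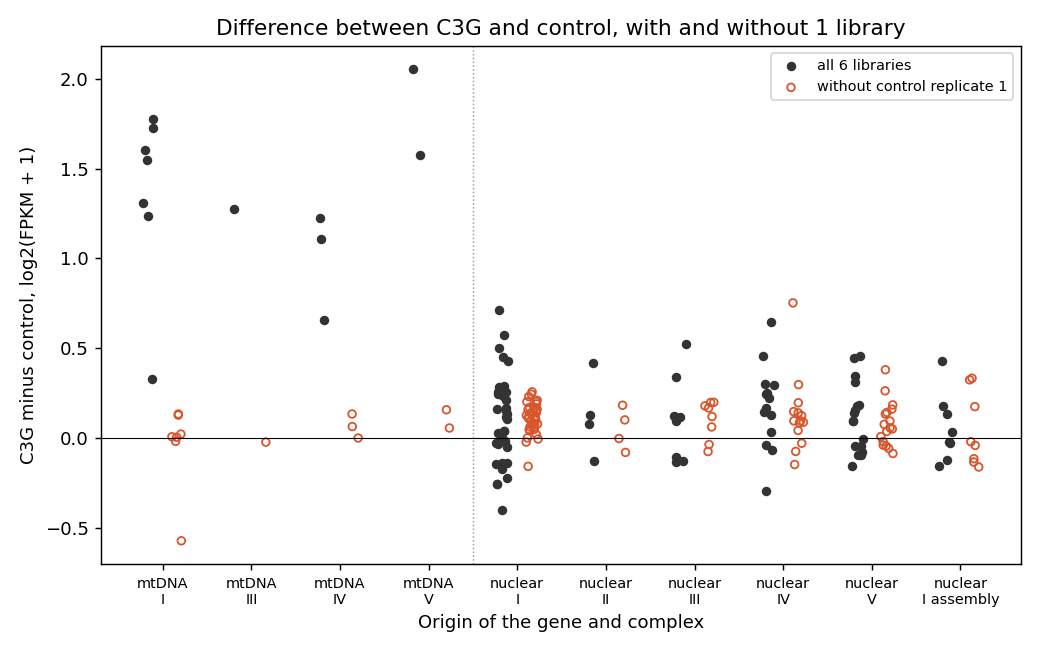
Log2 difference between C3G and control cultures for each member, by genome of origin and complex; filled points use all 6 libraries and open points leave out control replicate 1. The mitochondrially encoded members lie between 0.33 and 2.05 with all libraries and between -0.57 and 0.16 without that library, whereas the nuclear members lie around 0 in both.

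The depth of the departure of control replicate 1 was not the same for all mitochondrially encoded members. Against the mean of control replicates 2 and 3, *mt-Co2* was 3.93-fold lower, *mt-Nd6* 6.98-fold, *mt-Co3* 8.77-fold and *mt-Co1* 9.75-fold lower. At the other end, *mt-Atp6* was 65.3-fold lower, *mt-Nd4* 35.3-fold and *mt-Nd2* 31.0-fold lower. The median of the 13 was 15.3-fold. The 3 subunits of complex IV departed less (median log2 departure -3.13) than the 7 of complex I (-4.42) and the 2 of complex V (-5.12). Neighbours on mtDNA were not alike in this: *mt-Atp6* departed by -5.99 and *mt-Co3*, which follows it and shares 1 base with it, by -3.13. Stretches of 75 bases that also occur in nuclear copies made up most of 6 members, which are therefore uncertain: 99.9% of *mt-Co3*, 99.5% of *mt-Co2* and of *mt-Atp6*, 98.7% of *mt-Nd4l*, 97.8% of *mt-Nd3* and 61.5% of *mt-Nd4*. Such stretches also made up 39.8% of *mt-Co1*, which is thus partly open to the same doubt, 5.71% of *mt-Nd2* and 1.66% of *mt-Nd5*. No such stretch occurred in *mt-Nd1*, *mt-Nd6*, *mt-Cytb* or *mt-Atp8*, which departed by -3.69, -2.70, -3.89 and -4.26.

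The nuclear members of control replicate 1 departed in both directions. Their median log2 departure from control replicates 2 and 3 was 0.0031, with 44 above and 43 below, and they ran from -1.80 for *Uqcrb*, a small subunit of complex III, to 1.51 for *Ndufb7*, an accessory subunit of complex I. The departures followed GC content. The 29 nuclear members with the lowest GC content had a median of -0.53, the middle 29 a median of -0.29 and the 29 with the highest a median of 0.51. Spearman's rho between departure and GC content was 0.557 over the 87 genes and 0.749 over the 11134 listed genes that are not members; all these points come from the same 3 libraries. *Uqcrb*, with 40.4% GC, read 14.7, 55.4 and 51.6 FPKM in the controls and 46.01, 56.6 and 50.03 with C3G. *Cox7c* read 17.5, 55.8 and 51.4 in the controls and 61.9, 62.8 and 51.5 with C3G, and was thus 3.07-fold lower in control replicate 1. *Cox8a*, whose printed sequence is rich in G and C, read 683, 324 and 313 in the controls and 486, 394 and 312 with C3G, 2.15-fold higher. *Ndufb7*, with 53.6% GC, read 37.7, 11.7 and 13.5 in the controls and 17.03, 12.03 and 12.1 with C3G. In all 4 genes control replicate 1 lay outside the range of the other 5 libraries.

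**Figure D3:**
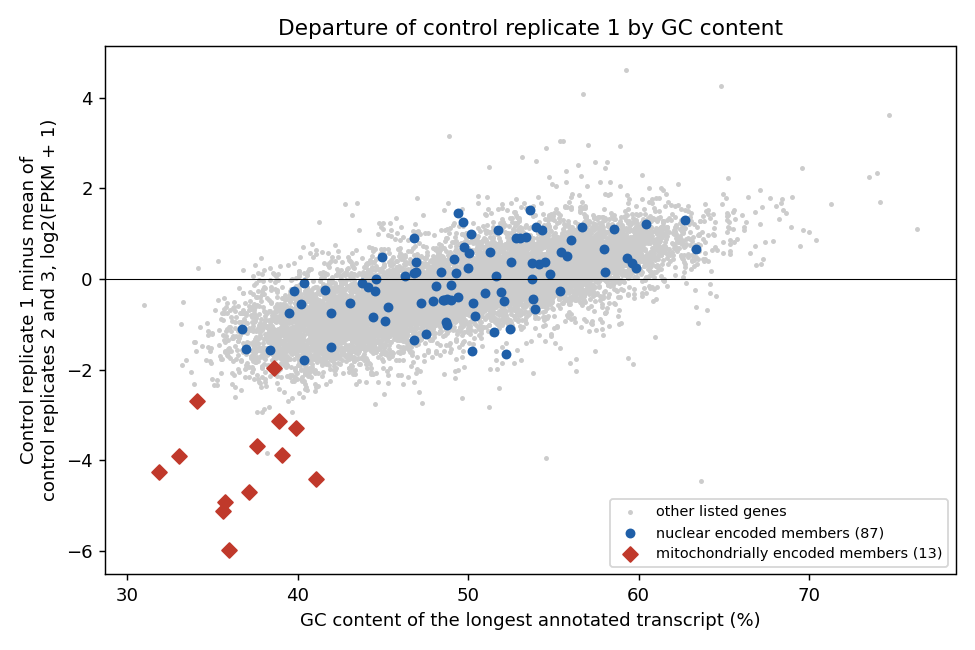
Departure of control replicate 1 from the mean of control replicates 2 and 3, on the log2(FPKM + 1) scale, against the GC content of the longest transcript. The 13 mitochondrially encoded members (diamonds) lie at -1.97 to -5.99, under most genes of the same GC content, and the 87 nuclear members (circles) lie along the trend of the other genes.

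Mitochondrially encoded members departed further than most genes of like composition. Within their GC range, 1092 genes outside mtDNA had a median departure of -1.16. Of these, 90 (8.24%) departed at least as far down as *mt-Co2*, and 0 reached the median of the mitochondrially encoded members, -3.91. Only 1 of the 1092 was as abundant in control replicates 2 and 3 as the lowest mitochondrially encoded member, so the comparison is with less abundant genes. Within the 13 themselves, the rho between departure and GC content was 0.264. In C3G replicate 1, set against C3G replicates 2 and 3, the median departure was -0.14 for the mitochondrially encoded members and -0.37 for the 1092 genes of the same GC range. There the mitochondrially encoded members thus lay nearer to 0 than genes of like composition, the reverse of control replicate 1. The nuclear members had a median of 0.31 in that library, with 74 of 87 above 0, where control replicate 1 had a median of 0.0031. After subtraction of a GC trend from each library, the median log2 difference between C3G and control was 1.02 for the mitochondrially encoded members and 0.04 for the nuclear members.

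The balance of the 2 genomes followed the same library. Summed FPKM of the 13 mitochondrially encoded subunits was divided by that of the 79 nuclear encoded members other than Ndufaf factors. This ratio was 0.391 in control replicate 1 but 5.88 and 5.56 in the other controls. With C3G it was 4.29, 6.15 and 6.35. The C3G values lay on both sides of the 2 other controls. Nuclear members took 2.35% of listed FPKM in control replicate 1, 1.90% and 1.89% in the other controls, and 2.23%, 2.01% and 1.80% in the C3G libraries, so the replicates numbered 1 were highest in both groups. The total includes the mitochondrially encoded members, at 0.906% in control replicate 1 and 11.0% and 10.4% in the other controls. A lower mitochondrial share by itself raises the nuclear share.

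Nuclear encoded members were lower than most mitochondrially encoded ones. Without control replicate 1, their mean levels ran from 2.17 FPKM for *Atp5s* to 366 for *Cox8a*, with a median of 43.9. The median ratio of the highest to the lowest of the 5 libraries was 1.41, against 1.31 for the mitochondrially encoded members. In control replicate 1, 40 of the 87 (46.0%) had their lowest value and 28 (32.2%) their highest, against 50.2% and 28.6% of all listed genes.

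**Figure D4:**
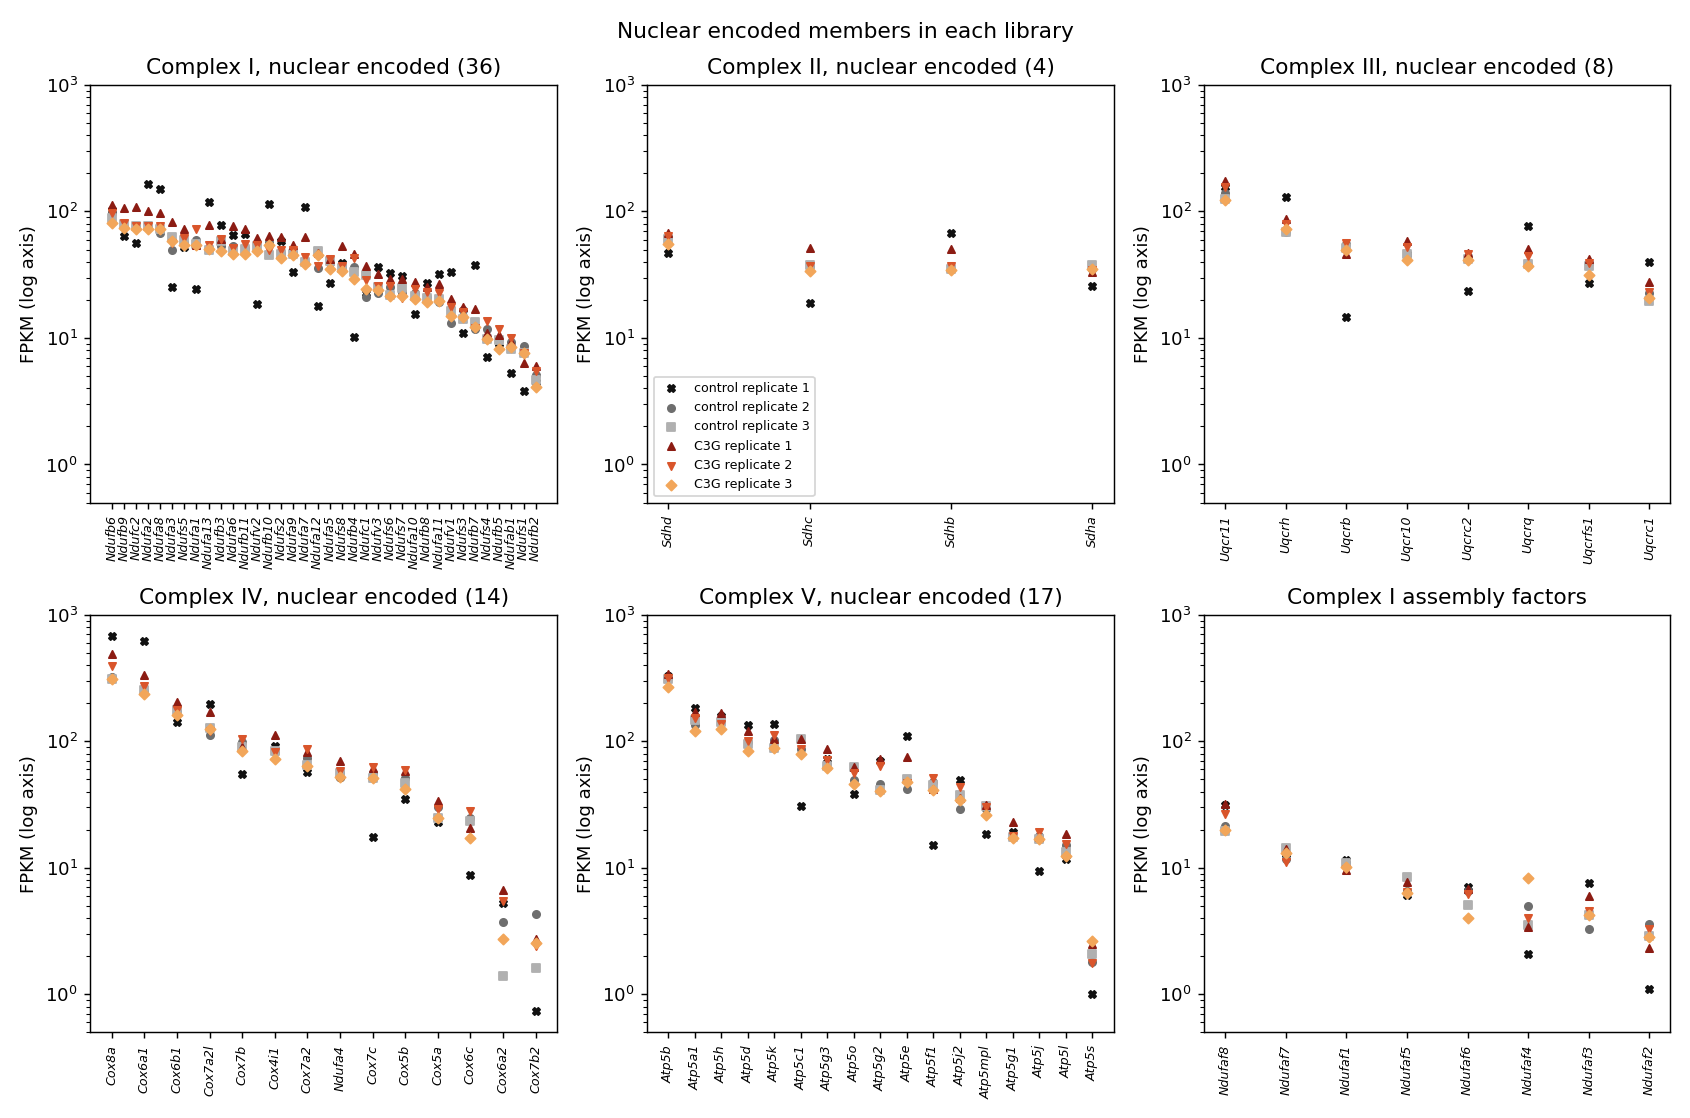
FPKM (log axis) of the 87 nuclear encoded members in each of the 6 libraries, by complex and in order of level. The crosses of control replicate 1 lie above the other symbols for some genes (*Cox6a1*, 625 FPKM) and below them for others (*Uqcrb*, 14.7 FPKM), and the other 5 libraries lie within a ratio of 4.74 for every gene.

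With all libraries, the C3G cultures showed no called difference in nuclear members. The median log2 difference was 0.12, with 56 positive and 31 negative, against 0.06 for all genes. It ran from -0.40 for *Ndufb7* to 0.72 for *Ndufb4*. Called members numbered 0 of 87, against 0.650% of all genes, and also 0 at an unadjusted limma p under 0.05; the smallest adjusted p was 0.992. An ordinary linear model also called 0. Left without control replicate 1, the median was 0.10, with 67 positive and 20 negative (all genes, 5297 positive and 5937 negative), the range was -0.16 to 0.75, and 0 of 87 were called, against 1.28% of all genes. At such shares a count of 0 is near that of all genes. Within the replicate numbers the median difference was 0.30 for number 1, 0.08 for number 2 and -0.09 for number 3, with 59, 67 and 17 of the 87 higher with C3G. The third pair thus went the other way from the first pair and the second. Over all genes these medians were 0.19, -0.01 and -0.01. With replicates 2 and 3 alone in both groups, the nuclear median was 0.0040 and the mitochondrial median 0.12.

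Complex I, the largest complex, had 36 nuclear members with values of 5.07 to 95.1 FPKM without control replicate 1. Its median log2 difference was 0.11 with all libraries, 23 positive and 13 negative, and 0.11 without control replicate 1, 33 positive and 3 negative, where 5297 of all 11234 genes were positive. The summed FPKM of the 36 was 1703.5 in control replicate 1, 1406 and 1417 in the other controls, and 1825, 1493 and 1334 with C3G. In C3G replicate 1, 33 of the 36 lay above the mean of the other C3G libraries (median log2 departure 0.33), and the sum in C3G replicate 3 lay under all controls. *Ndufa3*, an accessory subunit, had the smallest p of all 100 members (log2 difference 0.57, SE 0.35). It read 25.5, 49.9 and 63.1 FPKM in the controls and 82.8, 56.6 and 57.9 in the C3G cultures. The highest value was C3G replicate 1 and the lowest control replicate 1, and the other 4 overlapped. Without control replicate 1 its log2 difference was 0.20 (SE 0.20). *Ndufb4*, another accessory subunit, read 10.3, 36.4 and 33.1 in the controls and 46.5, 43.1 and 29.3 with C3G, and its log2 difference went from 0.72 (SE 0.47) to 0.16 (SE 0.21). Transcripts of *Ndufb4c* and *Gm16056* share 35.2% of the 75-base stretches of *Ndufb4*, the largest share among nuclear members. *Ndufa10* read 15.3, 22.6 and 21.4 in the controls and 27.7, 24.5 and 20.3 with C3G (log2 difference 0.28, SE 0.21, and 0.12, SE 0.15, without control replicate 1).

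*Ndufb7*, *Ndufb10* and *Ndufa2* had the lowest p among complex I members with negative differences. *Ndufb10* read 114, 57.5 and 45.2 FPKM in the controls and 63.98, 49.9 and 54.05 with C3G. *Ndufa2* read 164, 75.9 and 77.1 in the controls and 100.0, 77.00 and 72.4 with C3G. In these 3 genes control replicate 1 was 2.14- to 3.00-fold above the other controls, and the log2 differences of -0.40, -0.26 and -0.26 came to 0.10, 0.13 and 0.10 without it. *Ndufb6*, the most abundant nuclear member of complex I, read 102, 97.5 and 87.97 in the controls and 113, 96.8 and 80.5 with C3G, and its groups overlapped. *Ndufb2*, the least abundant, read 4.504, 5.06 and 4.62 in the controls and 6.02, 5.495 and 4.13 with C3G. Left without control replicate 1, the groups separated for *Ndufa8*, an accessory subunit, and for *Ndufs1*, the large iron-sulfur subunit. *Ndufa8* read 149, 68.04 and 73.2 in the controls and 97.3, 76.6 and 73.2 with C3G, higher with C3G against the 2 remaining controls by 0.21 on the log2 scale (SE 0.16). Its 2 closest values, of a control and a C3G library, were both 73.2 FPKM to 3 digits. *Ndufs1* read 3.81, 8.63 and 7.67 in the controls and 6.36, 7.63 and 7.65 with C3G, with a log2 difference of -0.16 (SE 0.14).

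Among the Ndufaf assembly factors, proteins that help build complex I without staying in it, *Ndufaf1* was the 1 nuclear member whose groups did not overlap with all libraries. It read 11.4, 10.9 and 10.8 FPKM in the controls and 9.63, 9.78 and 10.1 in the C3G cultures. All C3G values were lower, by 0.16 on the log2 scale (SE 0.14; two-sided exact permutation p = 0.1). Without overlap and lower with C3G were 166 of all genes, or 1.48%. The difference stayed at -0.13 (SE 0.11) without control replicate 1. *Ndufaf3* read 7.57, 3.25 and 4.200 in the controls and 5.98, 4.56 and 4.26 with C3G, and against the 2 remaining controls its C3G values were all higher (0.32, SE 0.17). The most abundant factor, *Ndufaf8*, read 31.3, 21.3 and 19.4 in the controls and 32.2, 26.8 and 19.99 with C3G. *Ndufaf7*, a methyltransferase that acts on a core subunit, read 12.97, 11.7 and 14.3 in the controls and 14.01, 11.2 and 13.2 with C3G. *Ndufaf2*, the least abundant, read 1.11, 3.61 and 2.91 in the controls and 2.34, 3.26 and 2.86 with C3G. In these last 3 genes the groups overlapped.

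Across all members, 9 had groups that did not overlap once control replicate 1 was left out. Higher with C3G were 5 (*mt-Co1*, *mt-Co3*, *Ndufa8*, *Ndufaf3* and *Uqcrh*), against 668 of all genes, or 5.95%. Lower were 4 (*mt-Nd6*, *Ndufs1*, *Ndufaf1* and *Sdha*), against 910 of all genes, or 8.10%. With both genomes pooled, the shares of members, 5 and 4 of 100, were no larger than those of all genes. Kept apart, 2 of the 13 mitochondrially encoded members were higher and 1 lower, and 3 of the 87 nuclear members were higher and 3 lower. The 2 of 13 is a larger share than 5.95%, but of few genes, which are read together from mtDNA.

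Complex II, succinate dehydrogenase, links the citric acid cycle to the chain. *Sdhd*, a membrane anchor, read 46.99, 63.3 and 60.9 FPKM in the controls and 67.2, 63.9 and 55.3 with C3G. *Sdhb*, the iron-sulfur subunit, read 68.2, 35.3 and 35.1 in the controls and 50.5, 37.1 and 34.3 with C3G, with control replicate 1 highest. *Sdha*, the flavoprotein that oxidises succinate, read 25.96, 35.03 and 37.6 in the controls and 33.3, 34.7 and 34.9 with C3G. For *Sdha* the 5 libraries other than control replicate 1 lay within a ratio of 1.13, and the C3G values were under both remaining controls by 0.08 on the log2 scale (SE 0.11). The other member, *Sdhc*, had the largest log2 difference of the 4 with all libraries, 0.42, and the lowest value of the 4 in control replicate 1, 18.8 FPKM. It was not called. The median log2 difference of the 4 genes was 0.10 with all libraries and 0.05 without control replicate 1.

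Complex III had 8 nuclear members. *Uqcr11*, a small subunit and the most abundant, read 157, 139 and 125 FPKM in the controls and 174, 156 and 123 with C3G. *Uqcrh*, the hinge protein that helps cytochrome c to dock, read 131, 69.3 and 69.2 in the controls and 87.1, 78.9 and 73.2 with C3G. Its C3G values were all above control replicates 2 and 3 (0.20, SE 0.13) and all under control replicate 1. *Uqcrc1*, a core protein and the least abundant, read 39.9, 22.5 and 19.5 in the controls and 27.7, 23.2 and 20.6 with C3G. The median log2 difference of the complex was 0.11 with all libraries and 0.14 without control replicate 1.

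Complex IV held *Cox8a*, the most abundant nuclear member, and most of the isoform families. *Cox6a1*, the broadly expressed isoform of its family, read 625, 251 and 255 FPKM in the controls and 336, 273 and 236 with C3G. With *Cox8a* it had the largest nuclear values in control replicate 1, in which both lay above all other libraries. *Cox6a2*, the isoform of heart and skeletal muscle, was far lower, at 5.26, 3.75 and 1.397 in the controls and 6.62, 5.46 and 2.73 in the C3G cultures. Its value was higher with C3G in each of the 3 replicate numbers, while the groups overlapped. With the replicate number as a block, *Cox6a2* was called (log2 difference 0.45, limma adjusted p = 0.794), where 169 of all genes, or 1.50%, were called; without the block it was not. Left without control replicate 1, its log2 difference was 0.75 (SE 0.38), and it was not called. With the block and a GC correction, 246 genes (2.19%) were called, among them *Cox6a2* (log2 difference 0.44, adjusted p = 0.785) and *Atp5g2* (0.41, adjusted p = 0.785). *Actn3*, the 1 skeletal muscle marker with values, read 4.72, 1.37 and 1.98 FPKM in the controls and 4.15, 1.79 and 2.301 with C3G, and its part in the *Cox6a2* value was not tested.

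For other families of complex IV, the broadly expressed forms had values. *Cox4i1* read 91.96, 81.5 and 83.7 FPKM in the controls and 113, 82.5 and 72.3 with C3G. *Cox6b1* read 141, 175 and 177 in the controls and 206, 178 and 161 with C3G, and *Cox7a2* read 56.7, 74.05 and 65.1 in the controls and 81.9, 87.3 and 63.7 with C3G. These 3 genes stayed within a ratio of 1.56 across the 5 libraries other than control replicate 1. *Cox7a2l*, whose protein joins complexes III and IV, read 196, 112 and 126 in the controls and 172, 119.5 and 124 with C3G. *Ndufa4*, the subunit named after complex I, read 52.1, 55.8 and 56.00 in the controls and 70.3, 58.1 and 52.3 with C3G, one of the nuclear members least displaced in control replicate 1 (0.932 of the mean of the other controls). Its log2 difference was 0.13 with all libraries (SE 0.17) and 0.10 without control replicate 1 (SE 0.15). *Cox7c* had the smallest p of the complex with all libraries (log2 difference 0.65, SE 0.43), and this came to 0.12 (SE 0.14) without control replicate 1. The least abundant, *Cox7b2*, a relative of *Cox7b*, read 0.736, 4.34 and 1.61 in the controls and 2.74, 2.39 and 2.53 with C3G. It was called when control replicate 2, its highest value, was left out (log2 difference 0.74, adjusted p = 0.809), in a fit where 127 of all genes, or 1.13%, were called, and its log2 difference was -0.07 without control replicate 1.

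Complex V had 17 nuclear members. *Atp5b* and *Atp5a1*, which form the catalytic head, were the most abundant, and their groups overlapped. *Atp5b* read 328, 316 and 309 FPKM in the controls and 342, 317 and 269.9 with C3G. *Atp5a1* read 183, 134 and 148 in the controls and 171, 152 and 119 with C3G. *Atp5s*, the coupling factor B and the least abundant, read 1.000, 1.797 and 2.098 in the controls and 2.52, 1.78 and 2.64 with C3G (log2 difference 0.35, SE 0.21, and 0.16, SE 0.16, without control replicate 1). *Atp5g1*, *Atp5g2* and *Atp5g3* encode the same mature c subunit of the rotor with different import sequences. *Atp5g3*, the most abundant of them, read 72.03, 66.6 and 64.1 in the controls and 87.3, 70.5 and 61.2 with C3G. *Atp5g2* read 70.2, 46.2 and 41.4 in the controls and 71.9, 64.2 and 40.5 with C3G. *Atp5g1* read 19.1, 17.5 and 17.4 in the controls and 23.2, 17.8 and 17.3 with C3G. In each of the 6 libraries *Atp5g3* was highest, *Atp5g2* next and *Atp5g1* lowest, while the ranges of *Atp5g3* and *Atp5g2* over the libraries overlapped. The median log2 difference of complex V was 0.10 with all libraries and 0.06 without control replicate 1.

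Promoter sequence was available from RefSeq (GRCm38.p6) for 73 of the 87 nuclear members, as the 250 bases before the start of transcription. Letters of the core motif of NRF1, GCATGCGC, a transcription factor of nuclear genes for mitochondrial proteins, were found on either strand in 9 of the 73 (12.3%), against 2.56% of all RefSeq promoters and 5.42% of those of listed genes. The core bound by ETS factors such as GABP, CCGGAAG, was found in 14 (19.2%), against 7.83% and 16.7%. These are matches of letters and not measured sites. The promoter of *Cox6a1*, one of the most abundant nuclear members, holds both and is printed for that reason, with both motifs in capitals. The letters of the NRF1 core match there on both strands in overlapping positions, so that the first run of capitals is longer than 1 core (chr5:115348959-115349208, minus strand, written 5′ to 3′).
Cox6a1 promoter: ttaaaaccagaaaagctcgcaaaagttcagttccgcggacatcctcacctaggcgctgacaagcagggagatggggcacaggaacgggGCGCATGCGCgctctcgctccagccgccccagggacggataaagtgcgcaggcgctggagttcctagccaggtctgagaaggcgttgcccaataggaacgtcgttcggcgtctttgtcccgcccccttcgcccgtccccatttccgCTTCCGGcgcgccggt

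Other genes on which the chain depends were counted from lists. Among 16 electron carriers and complex III genes outside the name rule, 16 had values, 0 were called in either direction, and the median log2 difference was 0.02. Of 50 other assembly factors, 49 had values, 0 were called and the median was 0.07. For mitochondrial transcription and RNA handling, 31 of 33 listed symbols, which can include 2 names of 1 gene, had values, 0 were called and the median was 0.10. For translation factors of mitochondria, 14 of 15 had values, 0 were called and the median was 0.05. For regulators of mitochondrial biogenesis, 10 of 14 had values, 0 were called and the median was -0.06. Left without control replicate 1, the medians of these 5 lists were -0.0048, 0.01, -0.04, -0.0052 and -0.01, and 2 of the 118 distinct genes (1.69%) were called, against 1.28% of all genes, both higher with C3G. *Elac2*, the enzyme that cuts the 3′ ends of mitochondrial tRNAs, read 17.5, 9.35 and 8.85 FPKM in the controls and 13.8, 11.9 and 10.3 in the C3G cultures (log2 difference 0.36, limma adjusted p = 0.992). *Pprc1*, a coactivator related to PGC-1α, read 6.69, 4.51 and 5.54 in the controls and 8.66, 5.52 and 9.501 with C3G (0.54, adjusted p = 0.992). *Elac2* was at its highest in control replicate 1. With the replicate block, 1 of the 118 (0.847%) was called, against 1.50% of all genes, and this was *Pprc1* (0.42, adjusted p = 0.794). With the block and a GC correction 2 were called (1.69%), against 2.19% of all genes, *Pprc1* (0.47) and *Higd1a* (0.27), a factor of respiratory chain assembly, both with an adjusted p of 0.785. In 3 more fits 1 of the 118 was called, *Pprc1* with the GC correction alone, where 135 of all genes, or 1.2%, were, and without C3G replicate 2 (0.63), where 0.356% were, and *Elac2* in an ordinary linear model with a library covariate (0.30), where 0.623% were. In control replicate 1 these 5 lists departed from the other controls by medians of 0.10, -0.14, -0.52, -0.18 and 0.24, all nearer to 0 than the -3.91 of the mitochondrially encoded members.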

How the data were processed

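Expression was measured by RNA-seq in 6 cultures, 3 per group, and the labels gave each library its group and number. The authors deposited 1 FPKM value per gene and library, which they calculated with Ballgown, and no counts, so depth is unknown, no counting error can be given and replicate spread is the only error. The submitters' processing notes also name cutadapt, HISAT2 2.1.0, StringTie, STAR 2.5.2b and hg19, without roles; the identifiers are those of mouse genes, and for 9812 of 11234 genes their versions equal GENCODE M21 (GRCm38), which gave positions, transcripts and GC content. The use of strand and of shared reads in counting is not given in the sources used here.

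On the log2(FPKM + 1) scale, all 11234 genes were fitted in limma 3.58.1 (R 4.3.3; eBayes with trend; 1 term, group). Calls used the thresholds of the study, p under 0.05 without adjustment (two-sided) and a 1.2-fold difference; adjusted p-values are those of Benjamini and Hochberg over the whole table. Log2 differences understate the change of low genes. Exact permutation tests were two-sided. The main fit was also run on simulated libraries with independent noise for each gene. These had no outlying library and no trend with GC content, so that run cannot support the fits where such features matter. Python 3.11.15 served for the rest (numpy 2.4.6, scipy 1.17.1, pandas 2.3.3).

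The members and lists were chosen with earlier results of these data known. Named genes were the mitochondrially encoded members, *Ndufa4*, the 2 highest and the lowest nuclear members of each complex, members without overlap between groups, the 5 smallest p in each direction, isoform families and listed genes that were called. Highest and lowest here refer to the mean over all 6 libraries, control replicate 1 included, and the order can differ without it. *Sdhc*, *Ndufa8*, *Ndufs1*, *Ndufaf3*, *Uqcrb*, *Elac2*, *Pprc1* and *Higd1a* came in once their values had been seen. The sign of *Sdhc* was not followed through the alternatives. The labels number the replicates 1 to 3 in each group. Deviations from the group means over all genes correlated at 0.653, 0.580 and 0.440 between libraries of the same number. Between the others they correlated at -0.640 to 0.307. The study states no pairing. Deviations sum to 0 within each group, so these correlations depend on each other and cannot settle whether the samples were paired. The number was fitted as a block only as an alternative. Further alternatives were another pseudocount, filter, variance model and scaling, a GC correction and leaving out each library.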

Additional observations from a re-analysis of the deposited data

How the results depend on the processing

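Over all genes, 73 genes were called with all libraries, 48 with an ordinary linear model, 135 with a GC correction, 169 with the replicate block, 246 with the replicate block and a GC correction, and 191 with replicates 2 and 3 only in both groups. Leaving out 1 library gave 40 to 144 genes, the largest number without control replicate 1 and the smallest without C3G replicate 2. Mitochondrially encoded members called numbered 0 under all 19 alternatives. Nuclear members called numbered 0 with all libraries, 1 with the replicate block (*Cox6a2*), 2 with the block and a GC correction (*Cox6a2* and *Atp5g2*), and 0 to 1 when a library was left out (*Cox7b2*, without control replicate 2). The block changed no other call of a member and leaves log2 differences as they are.

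The median log2 difference of mitochondrially encoded members stayed positive under every alternative, at 0.35 with a library covariate, 1.02 with a GC correction, 0.12 with replicates 2 and 3 only, and 0.02 to 1.99 when 1 library was left out; it was 0.02 without control replicate 1, 1.99 without control replicate 2 and 1.93 without control replicate 3. That of nuclear members was 0.0040 with replicates 2 and 3 only, 0.04 with a GC correction and 0.01 to 0.21 when 1 library was left out, the lowest without C3G replicate 1 and the highest without C3G replicate 3.

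Some log2 differences of named genes, none of them called with all libraries, changed sign, and the cause was not tested. Replicates 2 and 3 only gave -0.57 for *mt-Nd6*, 0.028 for *Ndufb10*, -0.016 for *Ndufb2*, -0.069 for *Ndufb6*, -0.068 for *Ndufaf2*, 0.019 for *Sdhb*, -0.061 for *Sdhd*, -0.059 for *Sdha*, 0.057 for *Uqcrc1*, 0.13 for *Uqcrh*, 0.0052 for *Cox6a1*, -0.019 for *Ndufa4*, -0.10 for *Cox4i1*, -0.052 for *Cox6b1*, -0.11 for *Cox7b2*, 0.14 for *Cox8a*, 0.033 for *Cox7a2l*, 0.084 for *Ndufa8*, -0.081 for *Ndufs1* and -0.0067 for *Uqcrb*. With a library covariate the values were -0.35 for *mt-Nd6*, 0.041 for *Ndufb10*, 0.030 for *Ndufa2*, -0.085 for *Ndufaf2*, 0.12 for *Sdhb*, -0.044 for *Sdha*, 0.11 for *Uqcrc1*, 0.13 for *Uqcrh*, 0.048 for *Cox6a1*, 0.23 for *Cox8a*, 0.15 for *Cox7a2l*, 0.035 for *Atp5a1*, 0.13 for *Ndufa8* and -0.088 for *Ndufs1*. A GC correction, with the replicate block or without it, gave -0.073 for *mt-Nd6*, -0.050 for *Ndufb2*, -0.086 for *Ndufb6*, -0.0090 for *Sdha*, -0.10 for *Ndufa4*, -0.029 for *Cox7b2*, 0.041 for *Cox8a* and -0.018 for *Atp5g1*. Median centring gave -0.065 for *Ndufb6*, -0.033 for *Cox4i1* and -0.030 for *Ndufaf3*, quantile normalization 0.0052 for *Atp5b* and -0.016 for *Ndufaf3*, rescaling over all genes -0.026 for *Ndufb6*, and rescaling over the genes outside mtDNA 0.0035 for *Ndufaf7*.

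When 1 library was left out, the log2 differences that changed sign ran from -0.018 to 2.40 for *mt-Nd5*, from -0.57 to 1.00 for *mt-Nd6*, from -0.023 to 1.96 for *mt-Cytb*, from -0.53 to 0.13 for *Ndufb10*, from -0.44 to 0.10 for *Ndufa2*, from -0.12 to 0.13 for *Ndufb6*, from -0.70 to 0.10 for *Ndufb7*, from -0.16 to 0.40 for *Ndufaf2*, from -0.020 to 0.33 for *Ndufaf8*, from -0.088 to 0.066 for *Ndufaf7*, from -0.29 to 0.18 for *Sdhb*, from -0.0029 to 0.21 for *Sdhd*, from -0.080 to 0.18 for *Sdha*, from -0.33 to 0.17 for *Uqcrc1*, from -0.26 to 0.20 for *Uqcrh*, from -0.016 to 0.24 for *Uqcr11*, from -0.52 to 0.14 for *Cox6a1*, from -0.15 to 0.17 for *Cox4i1*, from -0.075 to 0.74 for *Cox7b2*, from -0.26 to 0.30 for *Cox8a*, from -0.20 to 0.20 for *Cox7a2l*, from -0.0057 to 0.40 for *Atp5g2*, from -0.12 to 0.053 for *Atp5b*, from -0.039 to 0.21 for *Atp5g3*, from -0.19 to 0.068 for *Atp5a1*, from -0.035 to 0.17 for *Atp5g1*, from -0.35 to 0.21 for *Ndufa8*, from -0.16 to 0.34 for *Ndufs1*, from -0.18 to 0.32 for *Ndufaf3*, from -0.075 to 0.85 for *Uqcrb* and from -0.094 to 0.36 for *Elac2*. Pseudocount, filter, trend and variance model changed no sign. No depth can be given for FPKM values, and with 3 libraries per group 1 library can set the sign of a difference.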
